A study of Homo sapiens and Mus musculus with 14 samples.

Results

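Clone 1-absent peaks are stretches of accessible DNA that MDA-MB-436 control cells had, that a first SMARCAL1 knockout clone lacked and that a second clone kept. They were chosen by measured values: a control peak on chromosomes 1 to 22 or X, with a score of at least 6.26, that shared no base with any peak of clone 1 and at least 1 bp with a peak of clone 2. There were 4171 such peaks among 31709 control peaks in reach of the rule, which is 13.2% (95% interval 12.8 to 13.5) and 1 of 4 classes. A further 18550 peaks were found in both clones, 2992 were absent in clone 2 only, and 5996 were absent in both clones. Because the rule used the control score and the presence in the clones, those quantities describe the clone 1-absent peaks and test nothing about them.

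MDA-MB-436 is an established line of human triple-negative breast cancer. The control list merged 3 control libraries of batch 1, the clone 1 list 3 libraries of SMARCAL1 knockout clone 1 from the same batch, and the clone 2 list 2 libraries of SMARCAL1 knockout clone 2 from batch 2. The 3 lists held 64806, 39537 and 34572 peaks over 33.2, 22.3 and 8.37 Mb, so clone 2 peaks were narrower (median 200 bp) than those of control (399 bp) and clone 1 (453 bp). Each knockout line is 1 clone, so the loss of SMARCAL1 and the history of that clone cannot be told apart, and for clone 2 the batch cannot be told apart from either. With 1 merged list a group there was no replicate to test against, so no p-value is given, and the 95% intervals (exact Clopper-Pearson) of shares describe counting error alone. B16F10 melanoma cells, 3 Smarcal1 knockout and 3 reconstituted libraries, were not analysed here.

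ATAC-seq reads where a transposase can insert into DNA, which is mostly at promoters and at distal elements such as enhancers. Promoters of widely used genes tend to be open in every cell type, while distal elements differ more between cell types and between subclones of a line. SMARCAL1 belongs to the SNF2 family of ATP-driven DNA translocases and anneals and reverses stalled replication forks. It is not a classical nucleosome remodeller, but the series asks how chromatin accessibility differs with and without it.

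The promoters below are shown because each overlapped a clone 1-absent peak at the end of a gene taken by the naming rule. Others that qualified, such as those of TIMM23 and PDIA5, are not printed. Each is the 250 bases before an annotated start, from the RefSeq table of build GRCh38.p14, read 5′ to 3′ on the strand of the gene. Capitals mark matches, on both strands, to any of 12 short motifs, and overlapping matches run together. The motifs met here are the GC box (GGGCGG), the CCAAT box (CCAAT), the AP-1 motif (TGANTCA), the NRF1 motif (GCGCAN, then GCGC), the TATA box (TATAAA) and the interferon response motif (GAAANN, then GAAA).
ACSL4: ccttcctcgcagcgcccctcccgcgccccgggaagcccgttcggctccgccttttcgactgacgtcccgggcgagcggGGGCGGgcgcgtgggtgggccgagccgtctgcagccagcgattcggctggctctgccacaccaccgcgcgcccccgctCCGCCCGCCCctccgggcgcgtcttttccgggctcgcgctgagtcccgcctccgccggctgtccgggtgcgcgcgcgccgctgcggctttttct
GLO1: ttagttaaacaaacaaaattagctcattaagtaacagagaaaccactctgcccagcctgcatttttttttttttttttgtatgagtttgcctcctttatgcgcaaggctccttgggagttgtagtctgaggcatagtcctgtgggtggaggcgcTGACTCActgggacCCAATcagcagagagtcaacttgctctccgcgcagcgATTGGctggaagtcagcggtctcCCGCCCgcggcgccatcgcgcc
ZCCHC10: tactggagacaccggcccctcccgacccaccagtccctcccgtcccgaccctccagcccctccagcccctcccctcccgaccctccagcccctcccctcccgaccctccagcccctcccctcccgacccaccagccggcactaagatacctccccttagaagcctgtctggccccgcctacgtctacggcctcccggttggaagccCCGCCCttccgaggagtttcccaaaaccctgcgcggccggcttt
PHB1: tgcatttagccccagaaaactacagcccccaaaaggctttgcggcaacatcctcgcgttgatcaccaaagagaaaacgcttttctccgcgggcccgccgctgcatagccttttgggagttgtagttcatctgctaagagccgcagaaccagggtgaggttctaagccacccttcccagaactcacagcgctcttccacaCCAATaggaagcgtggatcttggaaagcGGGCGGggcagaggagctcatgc
SPDL1: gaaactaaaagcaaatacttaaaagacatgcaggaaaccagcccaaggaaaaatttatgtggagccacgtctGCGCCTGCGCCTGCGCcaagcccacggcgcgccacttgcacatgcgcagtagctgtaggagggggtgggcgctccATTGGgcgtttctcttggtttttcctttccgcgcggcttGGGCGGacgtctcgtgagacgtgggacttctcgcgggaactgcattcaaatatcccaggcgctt
IFI44: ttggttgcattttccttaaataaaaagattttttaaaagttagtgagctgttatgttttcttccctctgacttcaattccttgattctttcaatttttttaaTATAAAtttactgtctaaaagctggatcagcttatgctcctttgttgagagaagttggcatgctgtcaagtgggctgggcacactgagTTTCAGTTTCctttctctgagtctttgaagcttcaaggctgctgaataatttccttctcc

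The peak over the ACSL4 promoter, chrX:109733065-109733828, had a control score of 16.4 and a clone 2 score of 13.0, and the printed window is chrX:109733258-109733507 on the minus strand. ACSL4 loads arachidonate onto coenzyme A and shapes the lipids that make cells prone to ferroptosis. The window is 77.2% G and C with 42 CpG pairs and 3 GC boxes. The nearest clone 1 peak was 114 kb away.

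GLO1 encodes glyoxalase I, which detoxifies methylglyoxal. Its window on the minus strand, chr6:38703146-38703395, sat under a peak of control score 14.0 and clone 2 score 12.1 and holds 1 AP-1 motif, 1 GC box and 2 CCAAT boxes. ZCCHC10, a zinc knuckle gene whose window is chr5:133026550-133026799 on the minus strand, had a control score of 13.7 and a clone 2 score of 15.6. PHB1, which encodes the mitochondrial scaffold protein prohibitin, has its window at chr17:49414883-49415132 on the minus strand, and its peak scored 12.4 in control and 8.70 in clone 2. All 3 promoters thus carried peaks in control and clone 2 and none at either gene end in clone 1.

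SPDL1 encodes Spindly, an adaptor that brings dynein to kinetochores. Its window, chr5:169583523-169583772 on the plus strand, has 2 overlapping NRF1 matches, and its peak scored 12.2 in control and 9.30 in clone 2. IFI44 is an interferon-induced gene with a CpG-free window at chr1:78649581-78649830 on the plus strand, in which an interferon response motif starts 60 bases before the start. Its peak, chr1:78649687-78649964, scored 12.1 in control and 12.0 in clone 2, and the nearest clone 1 peak was 1.11 kb away. Of this window 144 bases lie under the peak, from base 107 on, so that the interferon response motif is under it and the TATA box lies almost wholly outside.

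Across all promoters, 445 windows of 381 genes overlapped a clone 1-absent peak. Their median G and C content was 65.2%, against 66.4% in windows of peaks found in both clones and 62.0% over all 22132 windows. The NRF1 motif was in 6.97% of them (31 windows, 4.78 to 9.74), against 11.8% of windows of peaks found in both clones (11.1 to 12.5) and 6.58% of all windows. The AP-1 motif was in 5.84% (26 windows, 3.85 to 8.44), against 3.14% (2.77 to 3.55) in windows of peaks found in both clones and 5.35% of all. The GC box was in 68.1%, 72.6% and 53.7%, and the CCAAT box in 33.3%, 37.5% and 32.7%, in the same order. The interferon response motif, seen at IFI44, was in 2.47% (11 windows, 1.24 to 4.38), 1.90% and 2.71%, so it was no more frequent than over all windows. In windows of peaks absent in clone 2 only, the AP-1 motif was in 3.83% (2.71 to 5.24) and the NRF1 motif in 11.4% (9.45 to 13.6). Both intervals overlap those of the clone 1-absent peaks. The motif TGACGTCA was in 1.57% (0.635 to 3.21) of clone 1-absent windows, against 3.11% (2.74 to 3.51) for peaks found in both clones. Not all of the 12 motifs are given here, and the shares were weighted by neither score nor width. A match describes letters in the window and not a bound factor, and windows of neighbouring starts can overlap.

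The clone 1-absent peaks were of moderate strength in control. Their control scores, which are -log10 p of the peak caller, ran from 6.26 to 19.6 with a median of 7.52. The median was 10.9 for peaks found in both clones, 7.33 for those absent in clone 2 only and 6.82 for those absent in both. In the highest decile of control score 1 peak was absent in clone 1 only, against 561 (17.7%) in the lowest decile. The fall was not steady, since decile 4 held the most, 677 (21.4%). At the threshold, the last peak inside scored 6.2601 and the first outside 6.2595. Of 1161 control peaks within 0.1 above it 223 were clone 1-absent, and of 1182 within 0.1 below it 204 were.

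They were also narrow, with a median width of 439 bp against 746 bp for peaks found in both clones and 524.5 bp for those absent in clone 2 only. Their share among control peaks was 19.6% in the lowest quartile of width and 3.46% in the highest. A score that was a recognisable mean over merged replicate calls was held by 55.8% of them, 67.3% of peaks found in both clones and 28.6% of those absent in both. A narrow peak has fewer bases that could meet a peak of another list, and the part of width in the class was not tested.

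In clone 2 these sites were ordinary peaks. The highest clone 2 score over each ran from 5.03 to 27.5 with a median of 10.3. Ranked among all clone 2 peaks, their median stood at percentile 42.5 (42.1 to 43.7), against 67.6 for peaks found in both clones. Most of that gap goes with the control score: averaged over the 9 lower score deciles the medians were 48.4 and 52.4, lower for the clone 1-absent peaks in 9 of 9. Of the 4171 peaks, 4066 met 1 clone 2 peak and 101 met 2.

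The nearest clone 1 peak lay at a median of 21.9 kb, against 18.2 kb for peaks absent in both clones, and the rule itself leaves out peaks that clone 1 overlapped. In all, 1226 of the clone 1-absent peaks (29.4%) had 1 within 10 kb. A clone 1 peak lay within 500 bp of 128 of them (3.07%) and within 100 kb of 88.1%, and 8 had none within 1 Mb.

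The clone 1-absent peaks were mostly far from gene ends. A gene-end peak is here one that lies no more than 1000 bp from the start or the end of a protein-coding gene, which includes 3′ ends because the gene table has no strand. There were 460 among the 4171, or 11.0% (10.1 to 12.0), against 36.1% (35.4 to 36.8) of peaks found in both clones, 32.7% (31.0 to 34.4) of those absent in clone 2 only and 12.1% (11.3 to 13.0) of those absent in both. Their median distance to a gene end was 43.9 kb, against 14.5, 10.1 and 28.4 kb. Measured from transcription start sites alone, without chromosome 8, the share was 10.5%, against 35.2% of peaks found in both clones.

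The low share of gene ends was seen in each score decile that held enough peaks, before width was weighed. It lay between 6.38% and 14.1% in score deciles 1 to 9 for the clone 1-absent peaks, and between 21.0% and 41.4% for peaks found in both clones. With all classes weighted to the scores of the clone 1-absent peaks, 11.0% compared with 28.6% of peaks found in both clones, a difference of -17.6 percentage points (-18.9 to -16.2), and with 32.9% of peaks absent in clone 2 only, a difference of -21.9 (-23.8 to -19.9). Gene-end peaks were wide (median 732 bp among the clone 1-absent ones, against 431 bp inside genes), and weighting by width quartile as well as score reduced the first difference to -3.48 points (-4.58 to -2.37) and the second to -13.1 (-14.8 to -11.4). Most of the contrast with the peaks found in both clones moved with width. In the 2 lower width quartiles, which held 1556 and 1479 of the clone 1-absent peaks, the gene-end share was 2.57% (1.84 to 3.48) and 7.64% (6.34 to 9.11), against 3.37% (2.55 to 4.37) and 6.47% (5.76 to 7.25) of peaks found in both clones, with overlapping intervals. In the 2 upper quartiles it was 18.1% (15.6 to 20.8) against 25.1% and 55.1% (49.0 to 61.1) against 71.5%. The contrast with the peaks absent in clone 2 only, which came from a clone 2 list of narrower peaks (median 200 bp, against 453 bp in clone 1), is also one between batches.

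**Figure D1:**
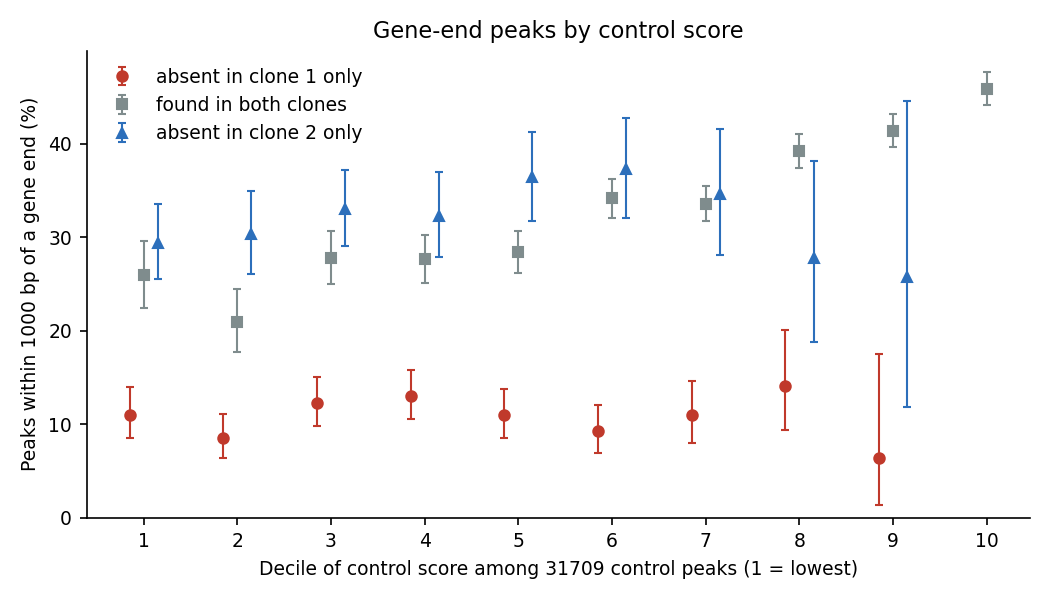
Share of control peaks within 1000 bp of a gene end (percent, vertical axis) by decile of control score (horizontal axis), for peaks absent in clone 1 only, found in both clones and absent in clone 2 only; bars are exact 95% intervals, and a class with under 20 peaks in a decile is not drawn. The clone 1-absent peaks stay between 6.38% and 14.1%, below both other classes in deciles 1 to 9.

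By place, 1582 clone 1-absent peaks (37.9%) lay inside a gene beyond its ends, 1165 (27.9%) between genes within 100 kb of an end and 964 (23.1%) beyond 100 kb. Of all control peaks that clone 2 had, clone 1 lacked 6.42% (5.86 to 7.01) at gene ends, 23.7% (22.7 to 24.8) inside genes and 24.8% (23.4 to 26.2) in the intergenic space beyond 100 kb. These shares were weighted by neither score nor width. The clone 1-absent peaks had median widths of 732, 431 and 389 bp in the same order, so the contrast between places is also one of width. The clone 2 score stood at a median percentile of 30.9 for the gene-end members and 50.6 for those farthest out. Among the clone 1-absent peaks the remote sites thus ranked higher in clone 2. Ranks by place were not computed for the other classes, so this may not be particular to them.

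Of the 10 strongest clone 1-absent peaks by control score, all but that of ACSL4 lay beyond 1000 bp of any gene end. The highest control score, 19.6 (clone 2 score 17.2), belonged to chr9:30932208-30932649, whose nearest gene is ACO1, the cytosolic aconitase and iron regulatory protein, 1452 kb away. ACSL4, described above, came next. Peaks nearest to RPS29, GBE1 and CITED2 scored 16.04, 15.3 and 15.0 in control and 13.9, 19.1 and 17.3 in clone 2, at 320, 811 and 799.9 kb from those genes. Inside genes were the peaks in ANKRD13C (15.6 and 9.19), in ADGRV1, an adhesion receptor gene (15.3 and 12.4), and in ENAH, an actin regulator (15.2 and 9.91). The peak near JRKL (16.02 and 15.7) had a clone 1 peak 0.455 kb away and the peak near PCDH19, a protocadherin gene (15.2 and 12.2), 1 at 4.84 kb, so these absences are more local than the others.

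None of the 10 that clone 2 called most strongly lay at a gene end. The first, 16.8 kb from FMR1NB on chromosome X, scored 27.5 in clone 2 and 11.7 in control, and a clone 1 peak lay 0.185 kb away. A peak 670 kb from ZNF804A scored 26.8 in clone 2 and 7.88 in control. Peaks inside NAV3, KDM4C, KLHL1 and MYO10, which encode a microtubule-binding protein, a histone H3K9 demethylase, a Kelch protein and an unconventional myosin, scored 25.2, 22.9, 22.8 and 21.5 in clone 2 and 11.0, 10.6, 6.49 and 7.45 in control. The others lay nearest to C4orf33, FAM133A, SLITRK6 and HTR2C, with clone 2 scores from 22.7 to 25.2. For HTR2C, a serotonin receptor gene, the nearest clone 1 peak was 639 kb away.

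At gene ends, 527 protein-coding genes had a clone 1-absent peak, which is 5.37% of the 9813 genes with a control peak in reach there. For 421 of them clone 1 had no peak at either end, and for 65 another peak at an end was found in both clones. Besides those with printed promoters, the strongest belonged to TIMM23, a channel of mitochondrial protein import (12.9 in control and 9.59 in clone 2), KCNN2, a calcium-activated potassium channel (12.3 and 19.4), and PDIA5, a disulfide isomerase of the endoplasmic reticulum (12.2 and 13.3). TIMM23 did have a clone 1 peak at an end. IFI16, a nuclear DNA sensor, and PYDC5 shared 1 peak (13.0 and 8.69), but a clone 1 peak lay 0.186 kb away and another end peak was found in both clones. The IFI16 promoter was therefore not without peaks in clone 1.

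Counted over gene bodies plus 10 kb, 2199 genes had at least 1 clone 1-absent peak, 16.3% of the 13517 genes with a control peak in reach there, and 364 had 2 or more. Peaks in overlapping flanks count for each gene. SYT1, the calcium sensor of synaptic vesicle release, had the most, 8 of its 14 control peaks (57.1%, 28.9 to 82.3). A further 7 genes had 5: CACNA1C, CADM2, CCSER1, COL22A1, FHOD3, NRXN3 and TIAM1. All 8 are genes of over 300 kb, which is more room for intronic peaks.

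The 8 peaks in SYT1 had control scores of 6.71, 8.89, 7.49, 6.43, 6.41, 6.27, 6.31 and 7.47 from 5′ to 3′. The clone 2 scores of the same sites were 7.11, 9.15, 7.33, 15.2, 10.3, 9.15, 13.1 and 9.69. Another 5 control peaks of the gene were found in both clones, including those at its start (12.6 in control, 6.78 in clone 1, 14.9 in clone 2) and at its 3′ end (19.4, 8.81 and 21.3). Clone 1 thus kept peaks in the outer parts of the gene and none in its middle. Stretches without clone 1 peaks are here gaps between neighbouring peaks of the clone 1 list, so no control peak inside them can meet clone 1. That of 479 kb in SYT1, chr12:78928773-79408012, held 6 control peaks and 7 clone 2 peaks. All 6 reached the score minimum and met a clone 2 peak, and so were clone 1-absent.

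**Figure D2:**
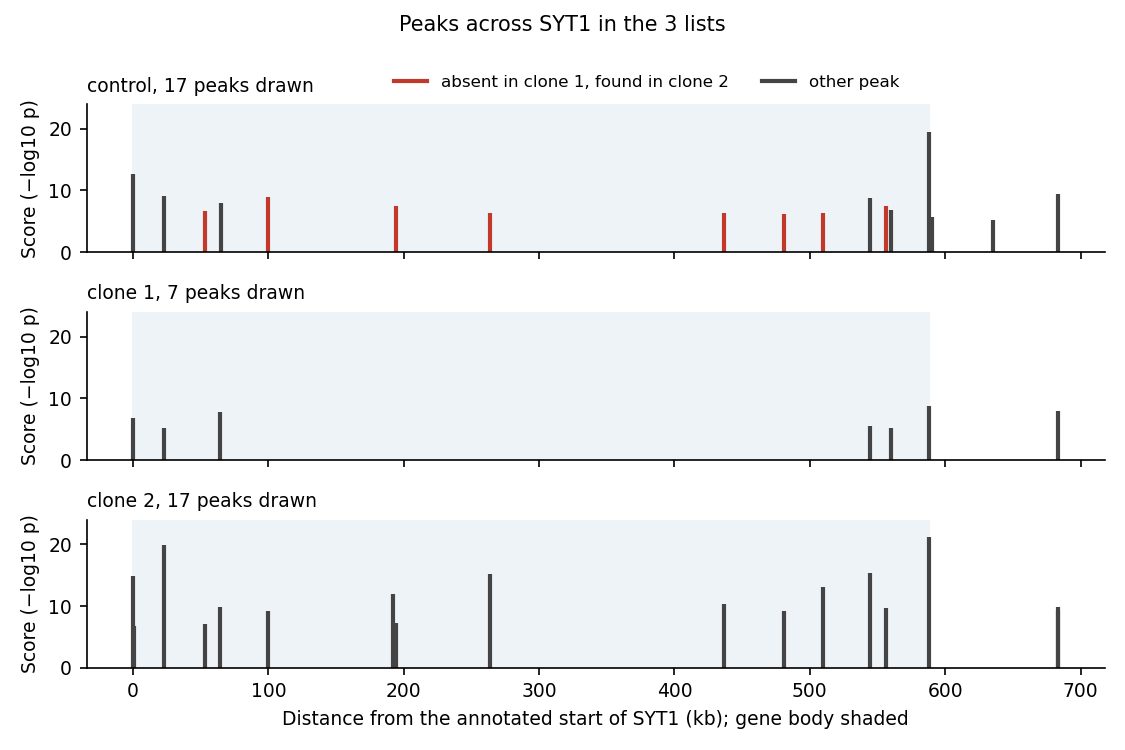
Peaks across SYT1 and 100 kb on each side in the control, clone 1 and clone 2 lists (17, 7 and 17 peaks), drawn at their distance from the annotated gene start in kb (horizontal axis) with the score as -log10 p (vertical axis), including control peaks below the score minimum. Red lines are the 8 clone 1-absent peaks, most of them in the middle of the gene, where the clone 1 row is empty.

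CCSER1 had 5 control peaks in reach and all 5 were clone 1-absent. Their control scores were 9.12, 9.39, 6.97, 9.18 and 7.57, and their clone 2 scores 9.39, 15.4, 12.0, 18.7 and 13.0. In FAT3, which encodes a giant atypical cadherin, 4 of 5 were, with control scores of 6.49, 6.46, 6.77 and 6.79 against clone 2 scores of 9.66, 10.3, 15.4 and 13.5. FAT3 falls outside the naming rule and was picked after its values were seen. In both genes each site scored higher in the clone 2 list than in the control list, although scores of the 2 lists are not on a common depth.

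In CADM2, a cell adhesion gene expressed in brain, 5 of 12 control peaks were clone 1-absent, the strongest at 15.0 in control and 15.99 in clone 2. All 5 lay in a stretch of 739 kb inside the gene, chr3:85081876-85821173, that had no clone 1 peak, 13 control peaks of any score and 7 clone 2 peaks. The 5 peaks of CACNA1C, the L-type calcium channel subunit gene, ran from 6.79 to 12.8 in control, and CACNA1C also had 4 peaks absent in both clones and 3 absent in clone 2 only. The peaks of TIAM1, a Rac exchange factor gene, ran from 6.84 to 13.7 in control and from 9.89 to 14.3 in clone 2, and 4 of the 5 lay in 1 stretch of 85.5 kb without clone 1 peaks. NRXN3, a neurexin gene, kept 12 of 19 in both clones, FHOD3, a formin gene, 4 of 9, and COL22A1, a collagen gene, 6 of 12. Peaks found in both clones thus remained in 7 of the 8 genes, and in CCSER1 there were none. CCSER1 was not empty in clone 1, however. Within the span of its 5 clone 1-absent peaks clone 1 had 2 peaks, neither over a control peak, and clone 2 had 13.

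Clone 1-absent peaks neighboured each other somewhat more often than their overall share. The nearest control peak in reach was itself clone 1-absent for 701 of them, 16.8% (15.7 to 18.0), against 13.2% (12.7 to 13.7) around peaks found in both clones. Peaks absent in clone 2 only had a neighbour of their own class for 19.2%, where 9.44% of all control peaks were of that class. In order along the chromosomes, 2937 stood alone, 439 runs had 2 in a row, 82 had 3, 21 had 4, 4 had 5 and 1, that in SYT1, had 6.

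Of the 4 runs of 5, 1 was that of CCSER1 and the others lay between genes. A run 59.3 kb from LOC105377015, chr3:30342327-30545141, had control scores of 11.3, 7.84, 6.29, 9.72 and 6.54 and clone 2 scores of 11.6, 9.04, 9.28, 11.0 and 11.1. A run 320 kb from RPS29, chr14:48563579-49250748, ran from 6.66 to 16.04 in control and from 7.88 to 13.9 in clone 2. A run 839 kb from GOT2, chr16:59573527-59906047, ran from 6.45 to 8.13 in control and from 6.61 to 18.9 in clone 2. Clone 1 had 1 peak within each of these 3 spans, and clone 2 had 8, 6 and 7.

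Weaker control peaks, those under the score minimum, were not classed by the rule. They are not independent of it, because 1 clone peak can cover a weak peak and a stronger one beside it. At TIAM1, control peaks of 6.21 and 20.4 side by side both met a clone 1 score of 10.9. By the rule no clone 1 peak can cover a clone 1-absent peak in this way. How far such shared peaks make up the differences below was not tested. Of 31606 such peaks, 16% were found in clone 1 and 15.0% in clone 2. Where the nearest control peak in reach lay within 10 kb and was clone 1-absent, 15.8% (13.6 to 18.2) of 1006 were found in clone 1 and 21.7% (19.2 to 24.3) in clone 2. Next to peaks found in both clones, 20.9% (19.8 to 22.2) of 4531 were found in clone 1 and 16.8% (15.7 to 17.9) in clone 2, and next to peaks absent in clone 2 only 28.7% and 11.2% of 935. Next to peaks absent in both clones 16.7% (15.0 to 18.5) of 1758 were found in clone 1 and 11.9% (10.5 to 13.6) in clone 2. The weaker peaks around clone 1-absent peaks were thus found in clone 2 more often than around any other class, with intervals that do not overlap. In clone 1 they were found less often than around peaks found in both clones, and at about the share of all weaker peaks and of those around peaks absent in both.

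The differences were smaller farther away. At 10 to 50 kb, 13.2% (11.6 to 14.9) of 1699 weaker peaks around clone 1-absent peaks were found in clone 1 and 16.5% (14.8 to 18.4) in clone 2, against 15.0% and 15.0% around peaks found in both clones. Neighbouring weak and strong peaks come from the same libraries, so these values are no replicate of the class.

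**Figure D3:**
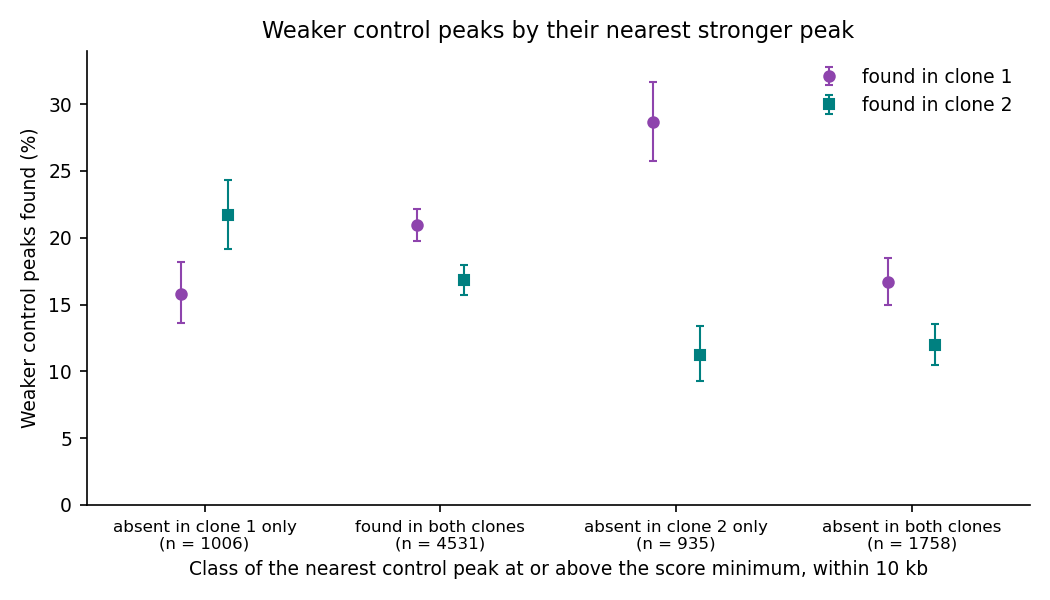
Share of weaker control peaks found in clone 1 and in clone 2 (percent, vertical axis) by the class of the nearest control peak at or above the score minimum within 10 kb (horizontal axis, with the number of weaker peaks); bars are exact 95% intervals. Next to clone 1-absent peaks 21.7% were found in clone 2 and 15.8% in clone 1, and next to peaks absent in clone 2 only the order is the opposite, 11.2% and 28.7%.

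By chromosome, clone 1-absent peaks were most frequent on X. They made up 19.4% (17.2 to 21.8) of its 1204 control peaks, 234 against 159 expected from the scores of those peaks, a ratio of 1.47. Chromosomes 21 and 18 followed with 17.5% (13.6 to 21.9) and 16.9% (14.3 to 19.8). The lowest shares were 6.37% (4.57 to 8.61) on chromosome 19, 8.33% (4.84 to 13.2) on 22 and 9.60% (8.18 to 11.2) on 7, with ratios of 0.414, 0.488 and 0.725. Peaks absent in clone 2 only were at 4.65% on X, 20.3% on 19 and 26.0% on 22. On chromosome 21 they were at 11.5% (8.33 to 15.4), an interval that includes their overall 9.44%. The 2 classes draw on the same control peaks, so a chromosome rich in 1 has less room for the other. Among control peaks that clone 2 had, clone 1 lacked 18.4% in all, with 25.3% (19.9 to 31.4) on 21, 23.7% (21.1 to 26.5) on X, 21.1% (12.5 to 31.9) on 22, 13.2% (11.3 to 15.4) on 7 and 11.0% (7.98 to 14.8) on 19. By this measure 21 and X are highest, with overlapping intervals, and 22 is no longer low.

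Their gene-end share differed between chromosomes, as did that of all control peaks. It was 59.0% (42.1 to 74.4) of 39 on 19, 62.5% (35.4 to 84.8) of 16 on 22, 30.4% (19.9 to 42.7) of 69 on 17 and 15.8% (11.4 to 21.1) of 234 on X. Among all control peaks in reach it was 65.5%, 47.4%, 49.6% and 28.1% on the same chromosomes, and 28.0% overall.

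**Figure D4:**
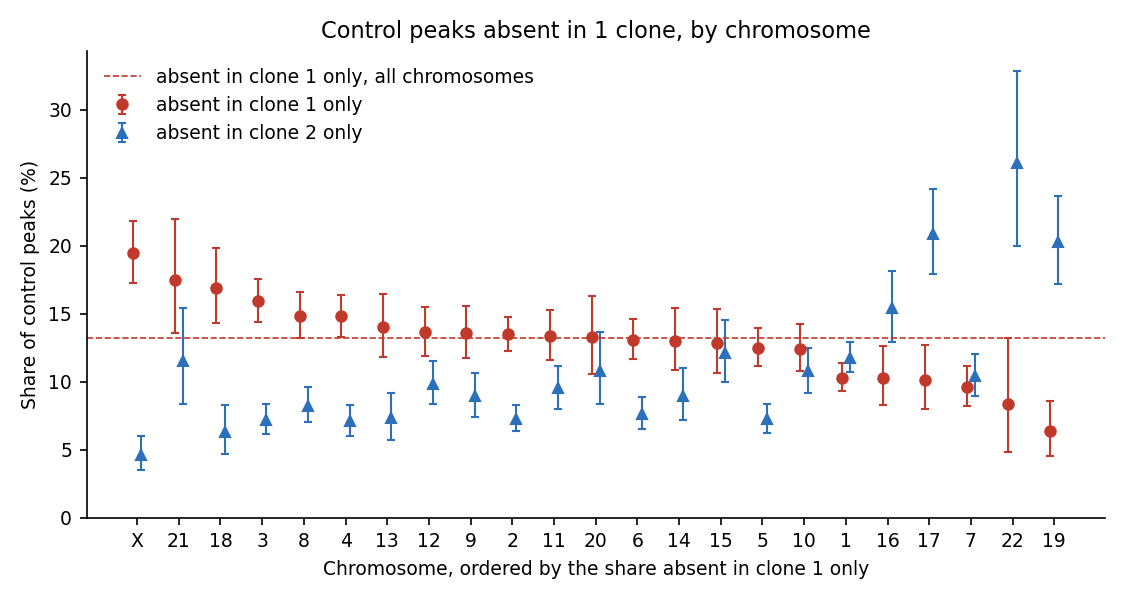
Share of control peaks absent in clone 1 only and of those absent in clone 2 only (percent, vertical axis) on each chromosome, ordered by the first; bars are exact 95% intervals and the dashed line is the overall 13.2%. Chromosome X has the highest share absent in clone 1 only, 19.4%, and the lowest absent in clone 2 only, 4.65%.

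Within chromosomes the share varied between 5 Mb windows. Over 556 windows with at least 20 control peaks the median was 13.0%, the 10th and 90th percentiles were 5.26% and 22.6%, and the range was 0 to 50%. In 29 windows the share was at least 26.3%, which is 2 times the overall one, and 5 of these were among the 24 windows of X. The highest was on X from 115 to 120 Mb, where 13 of 26 control peaks were clone 1-absent against 4.24 expected from their scores. Chromosome 4 from 90 to 95 Mb, which holds CCSER1, had 10 of 21, and chromosome 3 from 90 to 95 Mb 11 of 25. On X from 145 to 150 Mb, where FMR1NB and AFF2 lie, 17 of 41 were, and of the 51 weaker control peaks there 0 were found in clone 1 and 13 in clone 2. The other 3 windows had 1 of 17, 3 of 19 and 4 of 18 weaker peaks found in clone 1 and 9, 11 and 4 in clone 2, in the order named, so the window on chromosome 3 had no such difference.

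Across windows the share of clone 1-absent peaks ran against gene number (Spearman rho -0.435 over 556 windows). It went with the share of weaker peaks found in clone 2 (0.438 over 525 windows) and only slightly against that found in clone 1 (-0.149). The rule itself asks for a clone 2 peak and for no clone 1 peak. A window where clone 2 called more peaks can therefore gain clone 1-absent peaks and found weaker peaks together. The rho values for weaker peaks, and the counts of weaker peaks in the single windows above, are thus not independent of the rule. These are descriptions, since the windows share libraries and the peak classes share the control list.

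The clone 1-absent peaks were next counted in 26 gene lists, over gene bodies plus 10 kb, each peak once a list. The series concerns innate immune signalling and PD-L1, and the lists closest to those held few of these peaks. Of the 17 control peaks at nucleic acid sensing genes and the 11 at checkpoint ligand genes 0 were clone 1-absent, which by 3 counts of the total allows shares of up to 17.6% and 27.3% (exact upper limits 19.5% and 28.5%, both above the overall 13.2%). IFI16, the DNA sensor with a clone 1-absent peak described above, was in none of the lists. The 0 at sensing genes thus holds for the listed genes alone. CD274, the PD-L1 gene, had 2 control peaks in reach and SMARCAL1 3, with 0 clone 1-absent at either. Genes of AP-1 factors had 0 of 26 (up to 11.5% by 3 counts, exact upper limit 13.2%), cell cycle genes 0 of 43 (up to 6.98%, exact 8.22%), housekeeping genes 1 of 41, at PGK1, and NF-kB pathway genes 1 of 29, at NFKB1. Interferon-stimulated genes had 1 of 21, the IFI44 peak, which also lies in the flank of IFI44L. These are lists of short genes (median 8.50 to 50.8 kb), and of all control peaks at gene ends 5.19% were clone 1-absent, a share that each of these counts allows. The counts cover gene bodies plus 10 kb and not gene ends alone. Of all control peaks inside genes beyond their ends 15.6% were clone 1-absent. The part of gene-end position in these counts was not tested.

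Among lists with over 100 control peaks, that of ion channels had the highest share. Of 165 control peaks at ion channel and glutamate receptor genes, 35 were clone 1-absent (21.2%, 15.2 to 28.2), in 17 of 27 genes. RYR2, a calcium release channel gene, had 4 of 14, KCNIP4 3 of 16 and GRM5, a glutamate receptor gene, 3 of 7, after CACNA1C with 5 of 15. Synaptic adhesion and scaffold genes had 32 of 187 (17.1%, 12.0 to 23.3), in 16 of 25 genes, led by NRXN3 and by LRRC4C with 4 of 14, and with UNC5C, a netrin receptor gene, at 3 of 6. DCC, the other kind of netrin receptor, had 2 of 2. These lists hold very long genes (median 467 and 775 kb), and 15.6% of all control peaks inside genes beyond their ends were clone 1-absent, within both intervals.

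The short list of neuronal markers had 13 of 31 (41.9%, 24.5 to 60.9). SYT1 gave 8 of the 13, and without SYT1 the count was 5 of 17 (29.4%, 10.3 to 56.0), an interval that includes the overall share. The 5 others were 2 of 2 at GAP43, a growth cone gene, and 1 each at MAP2, NEUROD1 and SNAP25. SNAP25, a SNARE protein of vesicle fusion, had its peak at the gene's end, with scores of 7.35 in control and 9.84 in clone 2. Accessibility of an intron or a promoter says nothing of whether these genes are expressed in breast cancer cells.

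**Figure D5:**
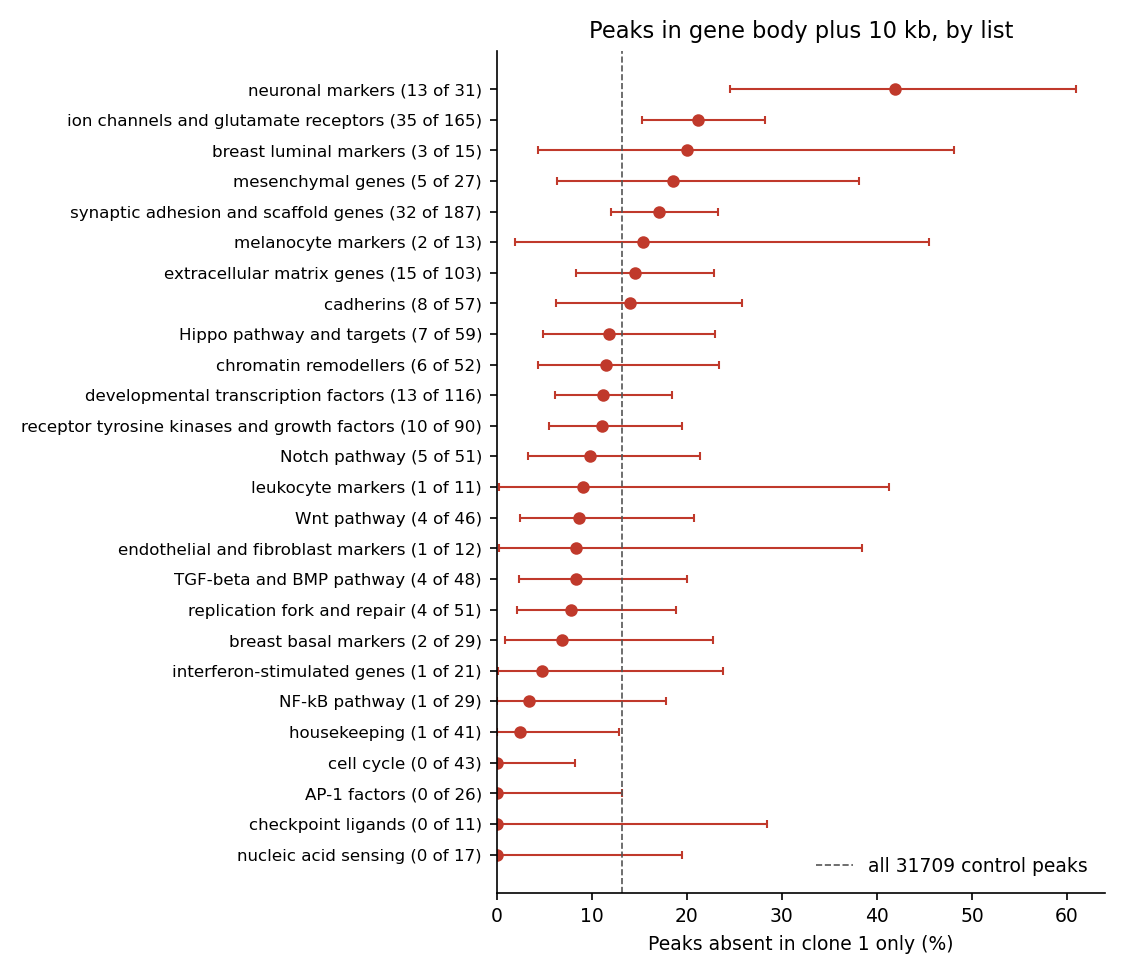
Share of control peaks in gene bodies plus 10 kb that were absent in clone 1 only (percent, horizontal axis) for each of the 26 gene lists, with the number of such peaks of all control peaks in brackets, each peak counted once a list; bars are exact 95% intervals and the dashed line is the share over all control peaks. Neuronal markers (41.9%) and ion channel genes (21.2%) have the highest shares, and 4 lists, cell cycle genes among them, are at 0.

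Fork and repair genes, the pathway of SMARCAL1 itself, had 4 of 51 (7.84%, 2.18 to 18.9), an interval that includes the overall 13.2%. They were 1 each at ZRANB3, a fork-remodelling translocase related to SMARCAL1, FANCD2, CHEK2 and MRE11. Those of CHEK2 (6.92 in control and 9.60 in clone 2) and MRE11 (7.56 and 18.2) were at gene ends. MRE11 kept 2 other control peaks in both clones. Chromatin remodeller genes had 6 of 52 (11.5%, 4.35 to 23.4), of which ARID1B gave 2 and ATRX, CHD1, CHD2 and CHD3 1 each. The ATRX peak was at a gene end (6.76 and 14.9).

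Signalling lists lay at or below the overall share. Receptor tyrosine kinase and growth factor genes had 10 of 90 (11.1%), with gene-end peaks at FGF2, FGF5 and PDGFRA, of which FGF5 scored 10.4 in control and 10.2 in clone 2. EGF had 2 of 5. Wnt pathway genes had 4 of 46, including an end peak of AXIN2, a feedback inhibitor of the pathway, TGF-beta and BMP pathway genes 4 of 48, including 2 of 4 at SMAD3, Notch pathway genes 5 of 51, with an end peak at HES1, a Notch target, and Hippo pathway genes 7 of 59, with 2 each at STK3 and VGLL3. No list of these had an interval that left out 13.2%.

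Developmental transcription factor genes had 13 of 116 (11.2%), 1 in each of 13 genes, with end peaks at FOXC1 (7.82 in control and 6.18 in clone 2), SOX2 (8.40 and 7.42) and TBX2 (7.69 and 6.91). For each of these 3 genes it was the only control peak in reach. Extracellular matrix genes had 15 of 103 (14.6%), among them 4 of 7 at COL8A1, a short-chain collagen gene with no peak found in both clones, and 3 each at COL5A2 and HMCN1. Cadherin genes had 8 of 57, of which CDH12 gave 3 and CDH2, N-cadherin, 2, and mesenchymal genes 5 of 27 (18.5%, 6.30 to 38.1).

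Lists of other cell identity markers were small, and each of their intervals includes the overall 13.2%. Breast basal markers had 2 of 29, 1 each at CAV1 and EGFR, and 7 of the 14 genes had a control peak in reach. Luminal markers had 3 of 15, 1 each at ESR1, PGR and GATA3. The GATA3 peak, chr10:8053297-8054131, lay inside the gene of this luminal transcription factor with scores of 12.6 in control and 10.3 in clone 2, and the other control peak of GATA3 was absent in both clones. Leukocyte markers had 1 of 11, at SPI1, melanocyte markers 2 of 13, both at MITF, and endothelial and fibroblast markers 1 of 12, at PDGFRA. Control peaks at such markers are few, and peak lists cannot show how many cells carried them.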

How the data were processed

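The data were 3 ATAC-seq peak lists of MDA-MB-436 cells in which the authors merged the replicates of a group, per the labels. The submitters' processing notes name the tools HISAT2, MACS2 and ChIPseeker and the builds hg38 (human) and mm10 (mouse). Which versions and settings they had is not given in the sources used here; read totals were not used, so depth is unknown. Each deposited line holds a position and a score, which by its values is a -log10 p given by the authors' caller. No score is below 5. Scores with over 5 decimals were taken as means of merged calls.

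Overlaps of at least 1 bp, distances and shares were computed with Python 3.11.15, numpy 2.4.6, pandas 2.3.3 and scipy 1.17.1 and drawn with matplotlib 3.10.9. The class assignment by overlap and the distance to the nearest clone 1 peak were tested on simulated intervals, and the other steps were not. Chromosome Y and contigs were left out. Genes (19974, protein-coding) and promoters (15812 of those genes, none on chromosome 8) came from RefSeq, GRCh38.p14. Expected numbers use the class share within score deciles. Differences weighted by score or width carry normal 95% intervals.

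Named genes are those of the 10 peaks with the highest control and the 10 with the highest clone 2 score, the 10 strongest at gene ends, the 5 genes with most such peaks and their ties, the 5 longest runs, up to 5 genes a list, SMARCAL1 and CD274. The peaks, lists and rule were chosen with earlier results of these data known. Alternatives were other score minimums, overlap rules, list lengths and gene distances.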

Additional observations from a re-analysis of the deposited data

How the results depend on the processing

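No paired analysis was possible because each group is 1 merged list, in which replicate numbers are lost, and for the same reason no replicate could be left out. The number of clone 1-absent peaks was 7166 with no score minimum, 459 with a score of at least 10 and 2326 among scores that are means only, against 4171. Genes with such a peak were 265 with a score of at least 10, 1392 among means only and 4089 with 50 kb flanks, against 2199. The gene-end share was 9.81% with no score minimum, 13.4% in lists of equal length, 12.6% among means only, 9.66% for gene ends within 500 bp and 15.0% within 3000 bp. Under these 5 settings the peaks found in both clones had 34.4%, 36.6%, 37.2%, 34.9% and 39.1%. The share with a neighbour of the same class was 5.66% (3.73 to 8.19) with a score of at least 10. There 3.95% of control peaks were of that class, which lies within the interval. In lists of equal length it was 19.2% (18.2 to 20.4), where 15.7% were. The median clone 2 percentile was 37.9 with no score minimum, 60.1 with a score of at least 10 and 44.2 among means only. The cause of these shifts was not tested. The alternatives by transcription start, without chromosome X and without SYT1 were chosen after seeing the data, and the values under them lay within the intervals of the reported ones. A narrow or weak peak in 1 list limits every absence, since a site just under the peak caller's threshold counts as absent.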
